A study of Mus musculus with 12 samples.

Results

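The mRNA of the mouse Toll-like receptors (TLRs) was followed through 4 monocyte-macrophage (Mo-Mac) fractions of an allergic skin lesion. The members were taken by gene symbol. They are Tlr1, Tlr2, Tlr3, Tlr4, Tlr5, Tlr6, Tlr7, Tlr8, Tlr9 and Tlr13, which make up 10 of the 37775 genes in the table. All 10 passed the expression filter that left 22118 genes to be tested. They were divided into 5 receptors of the cell surface (Tlr1, Tlr2, Tlr4, Tlr5 and Tlr6) and 5 of the endosome (Tlr3, Tlr7, Tlr8, Tlr9 and Tlr13).

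The lesion was IgE-CAI, an IgE-dependent chronic allergic inflammation, raised in the ear skin of WT BALB/c mice with anti-TNP IgE (300 μg, given intravenously) followed by TNP-conjugated ovalbumin (10 μg, given into the skin). Cells were sorted on day 5 after the challenge into classical monocytes (Ly6ChiPD-L2lo), early classical monocyte-derived macrophages (early CMDMs, Ly6ChiPD-L2hi), late CMDMs (Ly6CloPD-L2hi) and resident-like macrophages (Ly6CloPD-L2lo). Each fraction had 3 libraries, made from 5000 to 80000 cells by oligo(dT) capture, and all 12 libraries shared the strain, genotype, sensitization and day, with no library from untreated skin. The fractions are defined by gates on Ly6C and PD-L2, and the labels do not say whether the libraries of a fraction came from separate mice, so p-values measure the spread between libraries, which may be technical.

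TLRs are receptors of innate immunity that recognise molecules typical of microbes. The surface receptors bind lipids, lipoproteins and proteins, such as bacterial lipopeptides (Tlr2 paired with Tlr1 or Tlr6), lipopolysaccharide (Tlr4) and flagellin (Tlr5). The endosomal receptors bind nucleic acids, such as double-stranded RNA (Tlr3), single-stranded RNA (Tlr7), unmethylated CpG DNA (Tlr9) and bacterial ribosomal RNA (Tlr13). Most signal through the adaptor MyD88 to NF-κB, and monocytes and macrophages are among the cells in which several of them are known to be expressed.

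The total counts ranged from 12537178 to 19844113 per library, so that 3 counts in a library, the limit that a count of 0 allows, correspond to 0.151 to 0.239 CPM (counts divided by the TMM-normalized library size). This limit covers counting error only. The summed level of 10 leukocyte genes (Ptprc, Cd53 and 8 others) ranged from 4438 to 4817 CPM in classical monocytes, 1122 to 1804 in early CMDMs, 2474 to 2811 in late CMDMs and 4127 to 4291 in the resident-like macrophages. The summed level of 9 Mo-Mac markers was likewise lowest in early CMDMs (2152 to 2980 CPM, against 4968 to 9540 in the other fractions). Most of that sum was Lyz2, at 1764 CPM on average in early CMDMs and 4030 to 7310 in the others. The single markers differed in direction. Csf1r (391 and 395 CPM) and Adgre1 (86.8 and 84.7) had like means in early CMDMs and classical monocytes. Mertk (11.6 and 6.85) and Pdcd1lg2 (21.4 and 14.1) had higher means in early CMDMs, while Itgam, Fcgr1, Ccr2 and Ly6c2 had lower ones. The summed level of 6 keratinocyte markers was 17096 to 27284 CPM in early CMDMs and 1871 to 4050 in the others, with no marker at 0. That of 6 fibroblast markers, such as Col1a1, was 3254 to 5588 CPM in classical monocytes and 2988 to 4205 in early CMDMs, against 276 to 499 in the other 2 fractions, and that of 5 Langerhans cell markers, such as Cd207, was 2078 to 2729 CPM in resident-like macrophages and 273 to 606 elsewhere. Markers of T and NK cells reached 153 to 207 CPM in classical monocytes and at most 23.2 elsewhere, and those of B cells, neutrophils, basophils and mast cells, and type 1 conventional dendritic cells at most 100.8 CPM in any library. The part of these cells in the levels below was not tested. In bulk libraries fewer cells of a type and less RNA per cell cannot be told apart. Each result below is therefore given with TMM, which takes most genes as unchanged, and, where it matters, with libraries scaled to the 10 leukocyte genes. The latter moves all genes. Their median log2 fold change is then 1.82 in early and 0.97 in late CMDMs against classical monocytes, and -0.83 in late against early CMDMs. In resident-like macrophages it is 0.23 against classical monocytes, -1.58 against early CMDMs and -0.75 against late CMDMs.

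In the GENCODE M21 annotation of GRCm38, Tlr2 lies on the minus strand of chr3:83836272-83841767 and Tlr9 on the plus strand of chr9:106222598-106226883. Tlr4 lies on the plus strand of chr4:66827584-66930284, Tlr5 on that of chr1:182954788-182976044 and Tlr3 on the minus strand of chr8:45395665-45411080. Tlr7 (chrX:167304929-167330558) and Tlr8 (chrX:167242696-167264329) are neighbours on the minus strand, while Tlr13 is elsewhere on the same chromosome (chrX:106143204-106160493, plus strand). Tlr1 (chr5:64924679-64933563) and Tlr6 (chr5:64952031-64960097) are neighbours on the minus strand of chromosome 5. The reads were counted on transcripts, hence on exons. The longest coding transcripts range from 3014 bases for Tlr2 to 4407 bases for Tlr3, and levels were divided by these lengths wherever genes are compared with each other.

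Tlr1 and Tlr6 are close paralogs, and the counting could split reads between them. Of the 50-base stretches of the longest coding transcript, 15.3% in Tlr1 and 12.6% in Tlr6 also occur elsewhere in the transcripts, 454 of them in both genes, while the other 8 members share none. The longest stretch common to both, bases 1468 to 1696 of the Tlr1 coding sequence and 1507 to 1735 of that of Tlr6 in GENCODE M21, is shown because a read inside its 229 bases cannot be assigned to one gene. It is in lower case throughout because every base is shared.
Tlr1 and Tlr6, shared: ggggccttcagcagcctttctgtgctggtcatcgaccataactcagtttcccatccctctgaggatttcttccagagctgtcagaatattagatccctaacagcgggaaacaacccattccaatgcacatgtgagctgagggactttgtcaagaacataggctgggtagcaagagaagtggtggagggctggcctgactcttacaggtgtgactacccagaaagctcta

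The sequence just before the start of transcription is given for 3 members whose mRNA the results turn on, Tlr2, Tlr9 and Tlr8. The promoter table of RefSeq (GRCm38.p6) matched 8 of the 10 members, without Tlr4 and Tlr7, and only bases that precede both the RefSeq and the GENCODE start are printed, 5′ to 3′ on the strand of the gene. Capitals mark matches, on either strand, to PU.1 (GAGGAA), AP-1 (TGANTCA), IRF (GAAANNGAA), the core promoter box TATAAA or NF-κB motifs.
Tlr2, chr3:83841768-83841858, minus strand: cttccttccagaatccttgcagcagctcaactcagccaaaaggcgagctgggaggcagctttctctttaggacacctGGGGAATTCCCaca
Tlr9, chr9:106222348-106222597, plus strand: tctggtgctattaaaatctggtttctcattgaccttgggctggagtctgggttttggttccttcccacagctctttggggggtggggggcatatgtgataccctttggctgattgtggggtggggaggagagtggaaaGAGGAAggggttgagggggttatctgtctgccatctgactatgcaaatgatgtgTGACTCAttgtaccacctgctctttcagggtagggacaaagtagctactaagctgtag
Tlr8, chrX:167264330-167264579, minus strand: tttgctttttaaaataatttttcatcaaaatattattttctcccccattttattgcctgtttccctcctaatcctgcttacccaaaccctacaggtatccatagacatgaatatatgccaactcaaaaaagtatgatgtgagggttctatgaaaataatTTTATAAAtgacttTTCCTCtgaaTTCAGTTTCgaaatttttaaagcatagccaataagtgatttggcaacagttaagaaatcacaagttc

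The capitals in Tlr2 are 2 overlapping NF-κB matches. Those in Tlr9 are a PU.1 match followed by an AP-1 match. Those in Tlr8 are 2 overlapping TATA matches, a PU.1 match and an IRF match. Tlr2 and Tlr9, whose levels ran alike below, share no motif in these windows. Over 250 upstream bases of all 32851 promoters in the table, 3.9% hold the NF-κB motif, 23.3% the PU.1 motif, 6.75% the AP-1 motif, 7.13% the IRF motif and 12.4% the TATA motif. A match describes the letters and was not tied to binding.

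Across the family, the levels did not divide by the site of the receptor. The surface receptor Tlr2 and the endosomal receptor Tlr9 shared the order classical monocytes, resident-like macrophages, late CMDMs, early CMDMs. The surface receptors Tlr1 and Tlr4 and the endosomal receptors Tlr3, Tlr7 and Tlr8 had their highest mean in late CMDMs instead. Tlr5, Tlr6 and Tlr13 had their highest mean in classical monocytes, followed by late CMDMs. Early CMDMs had the lowest mean of 8 members, all but Tlr3 and Tlr4, whose lowest mean was in resident-like macrophages. These orders are of CPM after TMM; per leukocyte gene count, as given below, early CMDMs were not lowest for those 8 members.

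**Figure D1:**
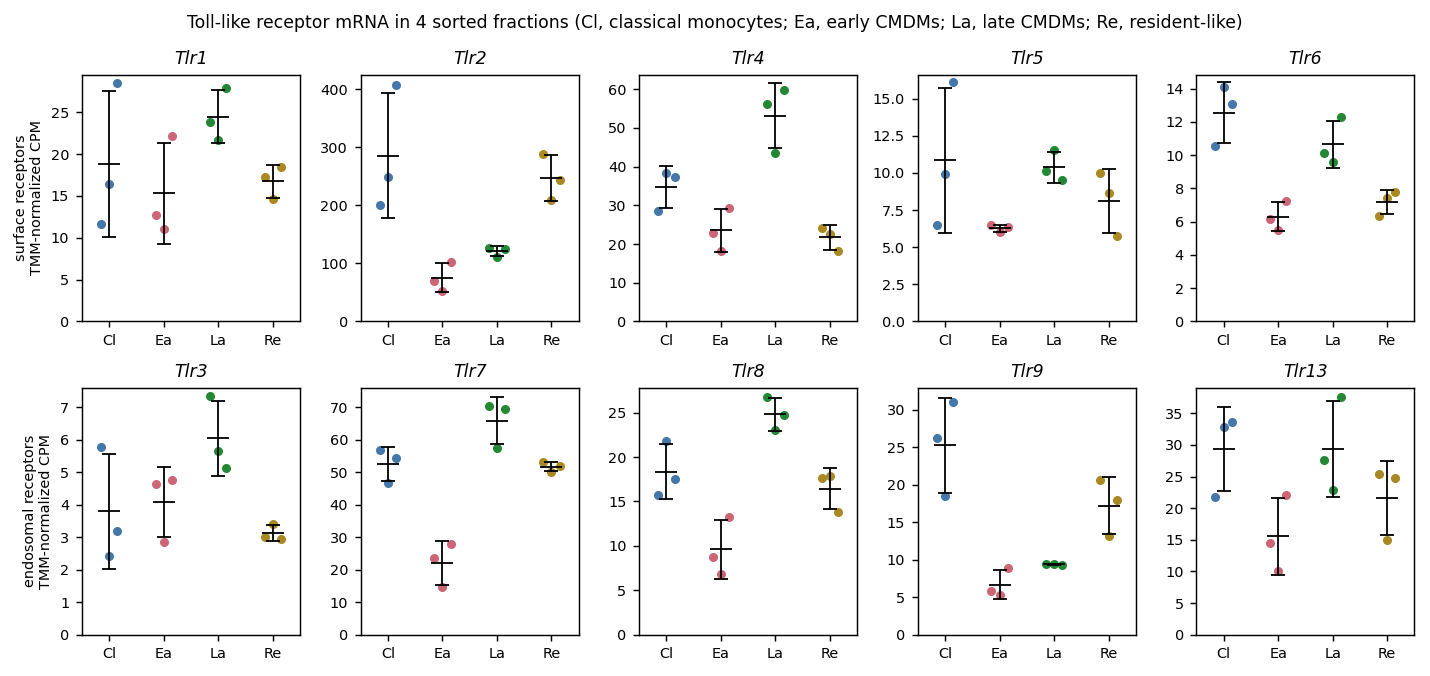
TMM-normalized CPM (y axes, from 0) of each member in each library of the 4 fractions (x axes); points are libraries, with the mean and SD (n = 3), surface receptors in the upper row and endosomal receptors in the lower. The late CMDM points of Tlr4 (43.6 to 59.8 CPM) lie above all others, while those of Tlr2 and Tlr9 lie between the early CMDMs and the other 2 fractions.

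Tlr2, the receptor of bacterial lipoproteins, was the most abundant member per length in every fraction. Its level was 201, 249 and 407 CPM in the 3 libraries of classical monocytes, 70.3, 53.0 and 103 in early CMDMs, 126, 111 and 125 in late CMDMs, and 289, 210 and 243 in the resident-like macrophages. The libraries of early CMDMs lay below all others, those of late CMDMs came next, and those of classical monocytes and resident-like macrophages overlapped. Tlr2 was lower in early CMDMs than in classical monocytes (log2 fold change -1.92, SE 0.27, adjusted p = 5.55e-05), and lower in late CMDMs than in classical monocytes (-1.24, SE 0.26, adjusted p = 0.00219). It was higher in resident-like macrophages than in early CMDMs (1.71, SE 0.26, adjusted p = 0.000138) and than in late CMDMs (1.03, SE 0.26, adjusted p = 0.00959). The last call was lost without the filter on low counts (adjusted p = 0.0598). Neighbours in the order, resident-like against classical (-0.21, SE 0.25, adjusted p = 0.635) and late against early (0.68, SE 0.26, adjusted p = 0.0636), did not pass the test. The last passed with DESeq2 (0.69, adjusted p = 0.0182), with only the 6 libraries compared (0.69, adjusted p = 0.0176) and without classical monocyte replicate 1 (0.68, adjusted p = 0.0447), classical monocyte replicate 3 (0.68, adjusted p = 0.0169) or early CMDM replicate 3 (0.97, adjusted p = 0.014).

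Per 100 counts of the leukocyte genes, Tlr2 had 6.13 ± 2.06 counts in classical monocytes (SD, n = 3), 5.25 ± 0.50 in early CMDMs, 4.53 ± 0.09 in late CMDMs and 5.89 ± 0.82 in the resident-like macrophages. With this scaling the log2 fold changes of Tlr2 in the 6 comparisons lay between -0.24 (late CMDMs against classical monocytes) and 0.28 (resident-like against late), with adjusted p from 0.171 to 0.913. The differences of Tlr2 after TMM thus ran with the leukocyte gene content of the libraries, and its part in them was not tested.

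Tlr9, the endosomal receptor of CpG DNA, followed the same order at a lower level per length (7.25 against 94.7 CPM per kb for Tlr2 in classical monocytes). It measured 26.2, 18.5 and 31.0 CPM in classical monocytes, 5.81, 5.25 and 8.86 in early CMDMs, 9.48, 9.42 and 9.30 in late CMDMs, and 20.6, 13.1 and 18.0 in the resident-like macrophages. Both CMDM fractions lay below all libraries of the other fractions, while classical monocytes and resident-like macrophages overlapped. Tlr9 was lower in early CMDMs (log2 fold change -1.92, SE 0.22, adjusted p = 3.55e-06) and in late CMDMs (-1.42, SE 0.22, adjusted p = 9.28e-05) than in classical monocytes. It was higher in resident-like macrophages than in early CMDMs (1.38, SE 0.22, adjusted p = 0.000107) and late CMDMs (0.87, SE 0.22, adjusted p = 0.00709). Resident-like macrophages against classical monocytes gave -0.55 (SE 0.21, adjusted p = 0.0671), and late against early CMDMs 0.50 (SE 0.23, adjusted p = 0.117). The first passed with library size only (-0.72) and without classical monocyte replicate 2 (-0.73), early CMDM replicate 3 (-0.54) or resident-like replicate 1 (-0.70), and the second without early CMDM replicate 3 (0.76). With leukocyte gene scaling the adjusted p of the 6 comparisons lay between 0.0588 (late CMDMs against classical monocytes, -0.44) and 0.617, and resident-like against early CMDMs turned to -0.19 and late against early CMDMs to -0.31.

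Plasmacytoid dendritic cells are known for Tlr7 and Tlr9 and carry Ly6C, though little CD11b, which the sort of CD45+ CD11b+ SiglecF- Ly6G- cells required. The summed level of 6 markers of these cells (Siglech, Ccr9, Klk1, Cox6a2, Tcf4 and Spib) was 1043 to 2006 CPM in classical monocytes, 127 to 140 in early CMDMs, 186 to 214 in late CMDMs and 145 to 151 in the resident-like macrophages, with no marker at 0. Siglech, their defining lectin, alone was 209 to 395 CPM in classical monocytes and at most 43.5 elsewhere. The part of these cells in the Tlr9 and Tlr7 levels of classical monocytes was not tested. In resident-like macrophages the means of Siglech and Tcf4 lay between those of both CMDM fractions, and the means of Ccr9, Klk1, Cox6a2 and Spib below both.

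Tlr4, the lipopolysaccharide receptor, ran differently from Tlr2 although both are surface receptors. It measured 28.4, 38.4 and 37.4 CPM in classical monocytes, 22.9, 18.3 and 29.3 in early CMDMs, 56.1, 43.6 and 59.8 in late CMDMs, and 24.3, 22.7 and 18.2 in the resident-like macrophages. Every late CMDM library exceeded every library of the other fractions. Tlr4 was higher in late CMDMs than in classical monocytes (log2 fold change 0.61, SE 0.17, adjusted p = 0.0111), than in early CMDMs (1.18, SE 0.18, adjusted p = 9.47e-05) and than in resident-like macrophages (resident-like against late -1.29, SE 0.18, adjusted p = 5.61e-05). It was lower than in classical monocytes both in early CMDMs (-0.56, SE 0.18, adjusted p = 0.0156) and in resident-like macrophages (-0.68, SE 0.18, adjusted p = 0.00966). Resident-like macrophages against early CMDMs did not pass the test (-0.11, SE 0.18, adjusted p = 0.63).

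Scaled to leukocyte genes, Tlr4 was higher in late CMDMs than in classical monocytes (1.59) and resident-like macrophages (resident-like against late -2.04), the early against classical difference reversed to 1.24, and the late against early difference (0.36, adjusted p = 0.0622) and the resident-like against classical one (-0.45, adjusted p = 0.0586) lost the call. Leaving out single libraries also ended calls of Tlr4. Early against classical was lost without classical monocyte replicate 2 (-0.49) or 3 (-0.51) or without early CMDM replicate 1 (-0.53) or 2 (-0.40). Late against classical was lost without classical monocyte replicate 1 (0.49) or late CMDM replicate 3 (0.52), and resident-like against classical without resident-like replicate 3 (-0.56).

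Tlr7, the single-stranded RNA receptor, was the most abundant endosomal member per length in every fraction. Its level was 56.7, 46.8 and 54.4 CPM in classical monocytes, 23.6, 14.7 and 27.9 in early CMDMs, 70.5, 57.6 and 69.5 in late CMDMs, and 53.1, 50.2 and 52.0 in the resident-like macrophages. Early CMDMs lay below and late CMDMs above all other libraries. Tlr7 was lower in early CMDMs than in classical monocytes (log2 fold change -1.25, SE 0.17, adjusted p = 2.01e-05), and higher than in early CMDMs both in late CMDMs (1.58, SE 0.17, adjusted p = 4.81e-06) and in the resident-like macrophages (1.23, SE 0.17, adjusted p = 2.32e-05). Late CMDMs against classical monocytes (0.32, SE 0.16, adjusted p = 0.143), resident-like against late (-0.35, SE 0.16, adjusted p = 0.134) and resident-like against classical (-0.02, SE 0.16, adjusted p = 0.942) did not pass. The first pair passed with only the 6 libraries compared (adjusted p = 0.0411 and 0.0114) and without early CMDM replicate 2 (0.33 and -0.34, adjusted p = 0.0308 and 0.0312), and resident-like against late also with library size only (-0.48, adjusted p = 0.0371). With leukocyte gene scaling early against classical reversed to 0.53 (adjusted p = 0.00324), late against early stayed positive (0.77, adjusted p = 0.000232) and resident-like against early became -0.33 (adjusted p = 0.0568).

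Tlr8, the neighbour and close relative of Tlr7, ran with it. It measured 15.8, 21.8 and 17.5 CPM in classical monocytes, 8.72, 6.83 and 13.2 in early CMDMs, 26.8, 23.0 and 24.7 in late CMDMs, and 17.7, 17.9 and 13.8 in the resident-like macrophages. As with Tlr7, the early CMDM libraries were the lowest and the late CMDM libraries the highest, without overlap with any other fraction. Tlr8 was lower in early CMDMs than in classical monocytes (log2 fold change -0.94, SE 0.20, adjusted p = 0.00114), and higher than in early CMDMs in late CMDMs (1.37, SE 0.20, adjusted p = 7.03e-05) and in the resident-like macrophages (0.78, SE 0.20, adjusted p = 0.0046). It was also lower in resident-like macrophages than in late CMDMs (-0.59, SE 0.19, adjusted p = 0.0298), a call lost without any 1 of the 3 late CMDM libraries (-0.54 to -0.64) or without resident-like replicate 3 (-0.48). Late CMDMs against classical monocytes (0.43, SE 0.19, adjusted p = 0.0906) passed with only the 6 libraries compared (0.45), without the filter on low counts (0.44), and without classical monocyte replicate 2 (0.58), early CMDM replicate 2 (0.44) or early CMDM replicate 3 (0.44). Scaled to leukocyte genes, early against classical turned to 0.84 (adjusted p = 0.000228) and resident-like against early to -0.77 (adjusted p = 0.000616), while late CMDMs stayed above early CMDMs (0.57, adjusted p = 0.0106).

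Tlr13, the receptor of bacterial ribosomal RNA, varied more between libraries. It measured 21.7, 32.8 and 33.6 CPM in classical monocytes, 14.5, 10.1 and 22.0 in early CMDMs, 27.6, 22.9 and 37.6 in late CMDMs, and 25.3, 14.9 and 24.8 in the resident-like macrophages. The early CMDM libraries overlapped those of classical monocytes but not those of late CMDMs. Tlr13 was lower in early CMDMs than in classical monocytes (log2 fold change -0.92, SE 0.29, adjusted p = 0.0192) and higher in late than in early CMDMs (0.92, SE 0.29, adjusted p = 0.0278). Neither call was firm. Both were lost without the filter on low counts (adjusted p = 0.101 and 0.132), without early CMDM replicate 1 (-0.86 and 0.86) and without early CMDM replicate 2 (-0.67 and 0.68). The first was also lost without classical monocyte replicate 2 (-0.83) or 3 (-0.81), the second without late CMDM replicate 3 (0.70). Resident-like macrophages against early CMDMs (0.48) passed without early CMDM replicate 3 (0.82, adjusted p = 0.0378). With leukocyte gene scaling the first reversed to 0.86 and the second was 0.13 (adjusted p = 0.615).

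Tlr3, the receptor of double-stranded RNA, had the lowest level per length of all members in every fraction. Its counts lay between 44 and 94 per library, or 2.42 to 5.79 CPM in classical monocytes, 2.85 to 4.75 in early CMDMs, 5.12 to 7.33 in late CMDMs and 2.94 to 3.40 in the resident-like macrophages. Late CMDMs were separate from early CMDMs and resident-like macrophages but overlapped classical monocytes. The only call after TMM was a lower level in resident-like macrophages than in late CMDMs (log2 fold change -0.94, SE 0.28, adjusted p = 0.0192). It was lost without late CMDM replicate 1 (-0.79) and without resident-like replicate 1 (-0.92) or 3 (-0.91). Late CMDMs against classical monocytes (0.67) passed without classical monocyte replicate 1 (1.11, adjusted p = 0.00335) and without the filter on low counts (0.68, adjusted p = 0.0321). Scaled to leukocyte genes, Tlr3 was higher than in classical monocytes in early CMDMs (1.90, adjusted p = 1.21e-06) and in late CMDMs (1.64, adjusted p = 1.9e-05). The medians of all genes were then 1.82 and 0.97. So scaled, Tlr3 was lower in resident-like macrophages than in early CMDMs (-1.95, adjusted p = 1.1e-06) and late CMDMs (-1.69, adjusted p = 3.07e-05), beside medians of -1.58 and -0.75. An antisense gene, Gm45542, overlaps Tlr3 on the opposite strand, and the mapping was set to one strand.

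Tlr6, the partner of Tlr2 for diacylated lipopeptides, measured 10.5, 14.1 and 13.1 CPM in classical monocytes, 6.19, 5.50 and 7.22 in early CMDMs, 10.1, 9.60 and 12.3 in late CMDMs, and 6.36, 7.40 and 7.77 in the resident-like macrophages. Early CMDMs and resident-like macrophages overlapped at the low end, and classical monocytes and late CMDMs at the high end. Tlr6 was lower than in classical monocytes in early CMDMs (log2 fold change -0.997, SE 0.16, adjusted p = 8.99e-05) and in resident-like macrophages (-0.81, SE 0.16, adjusted p = 0.00109). It was higher in late than in early CMDMs (0.76, SE 0.16, adjusted p = 0.0019) and lower in resident-like macrophages than in late CMDMs (-0.57, SE 0.16, adjusted p = 0.0139), the last call being lost without late CMDM replicate 3 (-0.46) or resident-like replicate 1 (-0.49). With leukocyte gene scaling early against classical turned to 0.82 and late against early to -0.07.

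Tlr1, the partner of Tlr2 for triacylated lipopeptides, was called in none of the 6 comparisons after TMM with all 12 libraries, nor by DESeq2, and in 1 of them its unadjusted p was under 0.05. It measured 11.6, 16.4 and 28.5 CPM in classical monocytes, 12.7, 11.003 and 22.2 in early CMDMs, 23.9, 21.6 and 27.8 in late CMDMs, and 17.3, 14.6 and 18.5 in the resident-like macrophages. Classical monocytes and early CMDMs spread widely, and of all pairs of fractions only late CMDMs and resident-like macrophages were separate (-0.54, SE 0.30, adjusted p = 0.202). Late against early CMDMs gave 0.68 (SE 0.30, unadjusted p = 0.0414, adjusted p = 0.106). It passed with only the 6 libraries compared (adjusted p = 0.0354), without classical monocyte replicate 3 (0.68, adjusted p = 0.0285) and without early CMDM replicate 3 (1.04, adjusted p = 0.016). Resident-like macrophages against late CMDMs also passed with only the 6 libraries compared (adjusted p = 0.00419), and late CMDMs against classical monocytes without classical monocyte replicate 3 (0.80, adjusted p = 0.0236). Scaled to leukocyte genes, Tlr1 was higher than in classical monocytes in early CMDMs (1.49, adjusted p = 2.2e-06) and late CMDMs (1.37, adjusted p = 1.56e-05). The medians of all genes were then 1.82 and 0.97. So scaled, Tlr1 was lower in resident-like macrophages than in early CMDMs (-1.41, adjusted p = 5.56e-06) and late CMDMs (-1.29, adjusted p = 6.4e-05), beside medians of -1.58 and -0.75.

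Tlr5, the flagellin receptor, measured 6.46, 9.95 and 16.1 CPM in classical monocytes, 6.49, 6.01 and 6.33 in early CMDMs, 10.1, 11.6 and 9.51 in late CMDMs, and 9.97, 8.67 and 5.77 in the resident-like macrophages. Early CMDMs had the lowest mean, but classical monocyte replicate 1 lay within their range. The lower level in early CMDMs than in classical monocytes was the only call (log2 fold change -0.79, SE 0.27, adjusted p = 0.0252). It was lost without classical monocyte replicate 3 (-0.39), without any 1 of the early CMDM libraries (-0.75 to -0.80) and without the filter on low counts (adjusted p = 0.0598), and reversed to 1.06 with leukocyte gene scaling. Late against early CMDMs missed the threshold (0.73, SE 0.27, adjusted p = 0.0531), and passed it with RLE factors (adjusted p = 0.0494), DESeq2 (0.0288) and only the 6 libraries compared (0.00117), and without classical monocyte replicate 1 (0.0169), classical monocyte replicate 3 (0.00919) or resident-like replicate 3 (0.0409). It was -0.12 with leukocyte gene scaling.

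Summed per kilobase of transcript, the 5 surface members had 116 ± 41.1 CPM per kb in classical monocytes (SD, n = 3), 39.2 ± 12.01 in early CMDMs, 66.9 ± 5.69 in late CMDMs and 96.9 ± 13.9 in the resident-like macrophages. The 5 endosomal members had 34.2 ± 2.44, 15.1 ± 4.83, 35.4 ± 3.79 and 29.1 ± 2.67 CPM per kb in the same order. The ratio of surface to endosomal mRNA within a library, which no scaling of the library can change, was on average 3.35 (2.46 to 4.37) in classical monocytes, 2.61 (2.46 to 2.76) in early CMDMs, 1.89 (1.86 to 1.94) in late CMDMs and 3.32 (3.20 to 3.53) in the resident-like macrophages. Late CMDMs were therefore the fraction with the smallest surface share in every library.

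This ratio was carried by Tlr2, which made up 81.5% of the surface sum in classical monocytes, 63.4% in early CMDMs, 60.1% in late CMDMs and 84.4% in the resident-like macrophages. Without Tlr2 the ratio was 0.61 (0.46 to 0.71), 0.96 (0.89 to 1.08), 0.75 (0.73 to 0.78) and 0.52 (0.48 to 0.56) in the 4 fractions in turn, so that early CMDMs then had the largest surface share. The contrast of surface and endosomal receptors thus depended on 1 gene.

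Receptors of the same site also diverged. The ratio of Tlr4 to Tlr2, both on the surface, was 0.0956 ± 0.0244 per kb in classical monocytes, 0.236 ± 0.0233 in early CMDMs, 0.324 ± 0.0319 in late CMDMs and 0.0658 ± 0.0127 in the resident-like macrophages (SD, n = 3). Its libraries in both CMDM fractions (0.210 to 0.353) lay above all libraries of classical monocytes and resident-like macrophages (0.0554 to 0.114). The ratio of Tlr7 to Tlr9, both endosomal, was 1.92 ± 0.35, 2.98 ± 0.57, 6.25 ± 0.69 and 2.77 ± 0.58 in the same order, with the late CMDM libraries (5.45 to 6.67) above all others (1.57 to 3.62). Across the sites, the ratio of Tlr2 to Tlr9 stayed between 8.83 and 18.5 in all 12 libraries, with overlapping fractions save that resident-like macrophages (15.6 to 18.5) lay just above the rest. These ratios were chosen after the levels were seen and are given without a test.

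**Figure D2:**
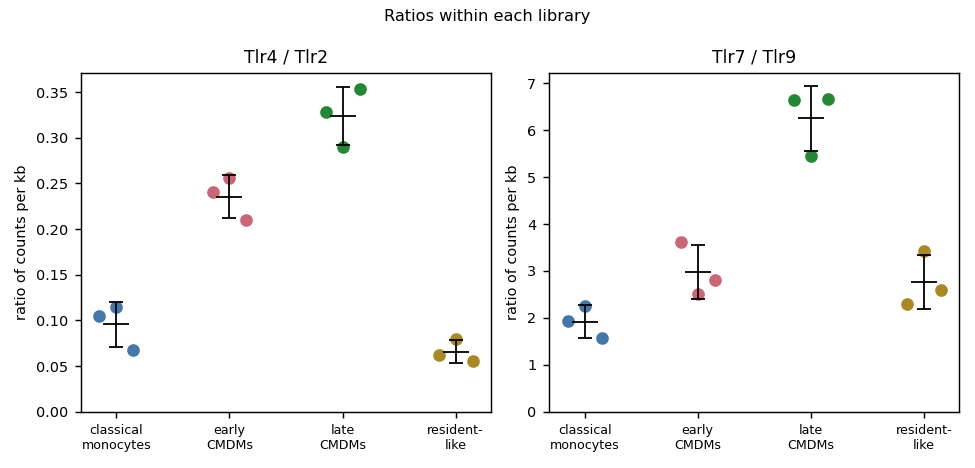
Ratio of Tlr4 to Tlr2 (left) and of Tlr7 to Tlr9 (right) in counts per kilobase within each library (y axes, from 0), for the 4 fractions (x axes); points are libraries, with the mean and SD (n = 3). In late CMDMs the Tlr4 to Tlr2 ratio is 0.290 to 0.353 and the Tlr7 to Tlr9 ratio 5.45 to 6.67, above all libraries of the other fractions.

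Over the 12 libraries, which share the 4 fractions and are not independent of them, the Pearson correlation of log2 CPM was 0.95 between Tlr2 and Tlr9 and 0.92 between Tlr7 and Tlr8. It was 0.08 between Tlr2 and Tlr4 and 0.04 between Tlr4 and Tlr9, and lowest between Tlr2 and Tlr3 (-0.36). Among the pairs of members, the closest thus joined a surface and an endosomal receptor. These correlations are of TMM values and depend on that scaling, as the leukocyte gene content of the libraries differed. They were not computed with leukocyte gene scaling.

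The 6 pairwise comparisons, which share libraries, give the following counts of members called at an adjusted p under 0.05. In early CMDMs against classical monocytes 0 members were higher and 8 lower (all but Tlr1 and Tlr3), where 24.2% of all genes tested were higher and 20.6% lower. The 8 were 4 surface and 4 endosomal receptors, and the median log2 fold change was -0.79 for the surface and -0.94 for the endosomal members, against -0.01 for all genes. At an unadjusted p under 0.05 the count of higher members was also 0, and DESeq2 called 0 higher; scaled to leukocyte genes, however, 8 members were higher (all but Tlr2 and Tlr9) and 0 lower, where 92.1% of all genes were higher and 1.96% lower and the median of all genes was 1.82. Without classical monocyte replicate 3, early CMDM replicate 1 or early CMDM replicate 2 the number fell from 8 to 5 each time.

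In late CMDMs against classical monocytes 1 member was higher (Tlr4) and 2 lower (Tlr2 and Tlr9), beside 18.1% of genes higher and 17.5% lower. The same comparison without early CMDM replicate 2 called 5 members, 3 higher and 2 lower. In late against early CMDMs 5 members were higher (Tlr4, Tlr6, Tlr7, Tlr8 and Tlr13), beside 14.4% of all genes, and 0 lower, beside 17.5%; DESeq2 and an unadjusted p under 0.05 also gave 0 lower. All 10 members had a positive log2 fold change here after TMM, from 0.50 (Tlr9) to 1.58 (Tlr7), but 6 of them turned negative with leukocyte gene scaling, where 2 members (Tlr7 and Tlr8) were called higher and 0 lower, where 1.07% of all genes were higher and 67.1% lower and the median of all genes was -0.83. The number called was 8 without classical monocyte replicate 3 and 8 without early CMDM replicate 3.

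**Figure D3:**
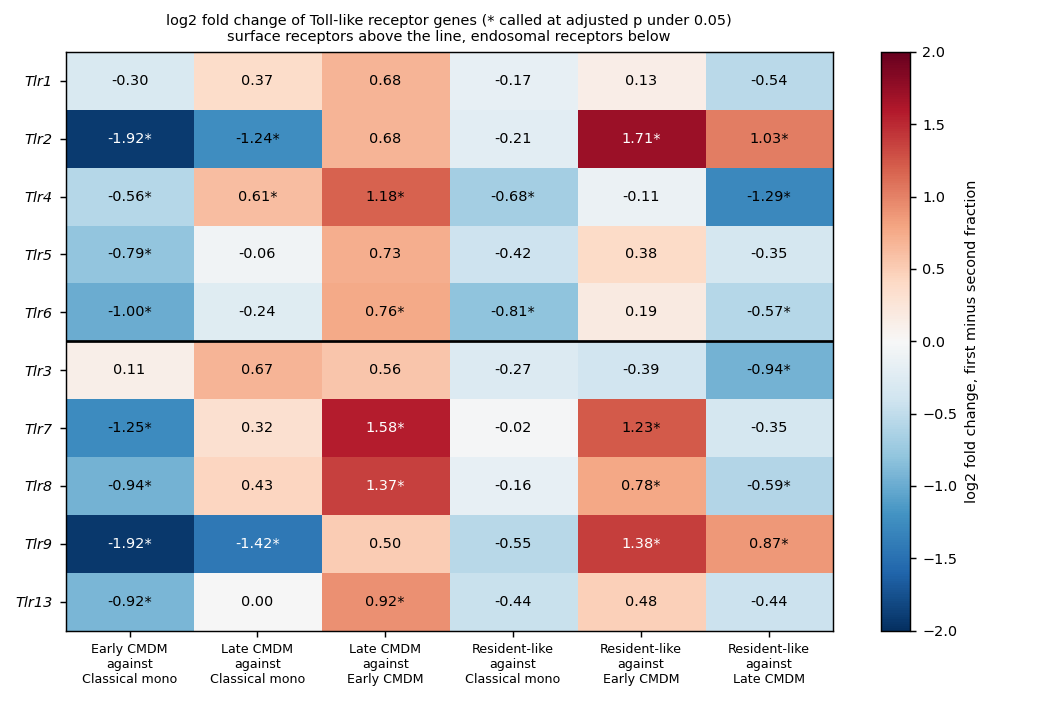
log2 fold change (color and number) of each member (rows) in the 6 comparisons (columns), first minus second fraction, after TMM; asterisks mark calls at an adjusted p under 0.05, and the line parts surface from endosomal receptors. Tlr2 and Tlr9, on either side of the line, have the same calls in all 6 comparisons; with leukocyte gene scaling 8 members are higher in early CMDMs against classical monocytes.

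In resident-like macrophages against classical monocytes 0 members were higher and 2 lower (Tlr4 and Tlr6), beside 10.8% of genes higher and 12.9% lower, and DESeq2 and an unadjusted p under 0.05 also gave 0 higher. The number was 1 without resident-like replicate 3. In resident-like macrophages against early CMDMs 4 were higher (Tlr2, Tlr7, Tlr8 and Tlr9), beside 21.4% of genes, and 0 lower, beside 25.1%, as with DESeq2 and at an unadjusted p under 0.05; with leukocyte gene scaling 7 were lower and 0 higher, where 89.9% of all genes were lower and 1.42% higher. In resident-like macrophages against late CMDMs 2 were higher (Tlr2 and Tlr9, beside 12.7% of genes) and 4 lower (Tlr3, Tlr4, Tlr6 and Tlr8, beside 15.4%), and with leukocyte gene scaling 8 were lower (all but Tlr2 and Tlr9) and 0 higher, where 64.4% of all genes were lower and 2.45% higher.

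Scaling to the leukocyte genes shifts all genes of a comparison by nearly the same amount, so that the order of the members and their distance from the median gene are kept by construction. In early CMDMs against classical monocytes the log2 fold changes so scaled ran from -0.13 for both Tlr2 and Tlr9 to 1.90 for Tlr3.

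**Figure D4:**
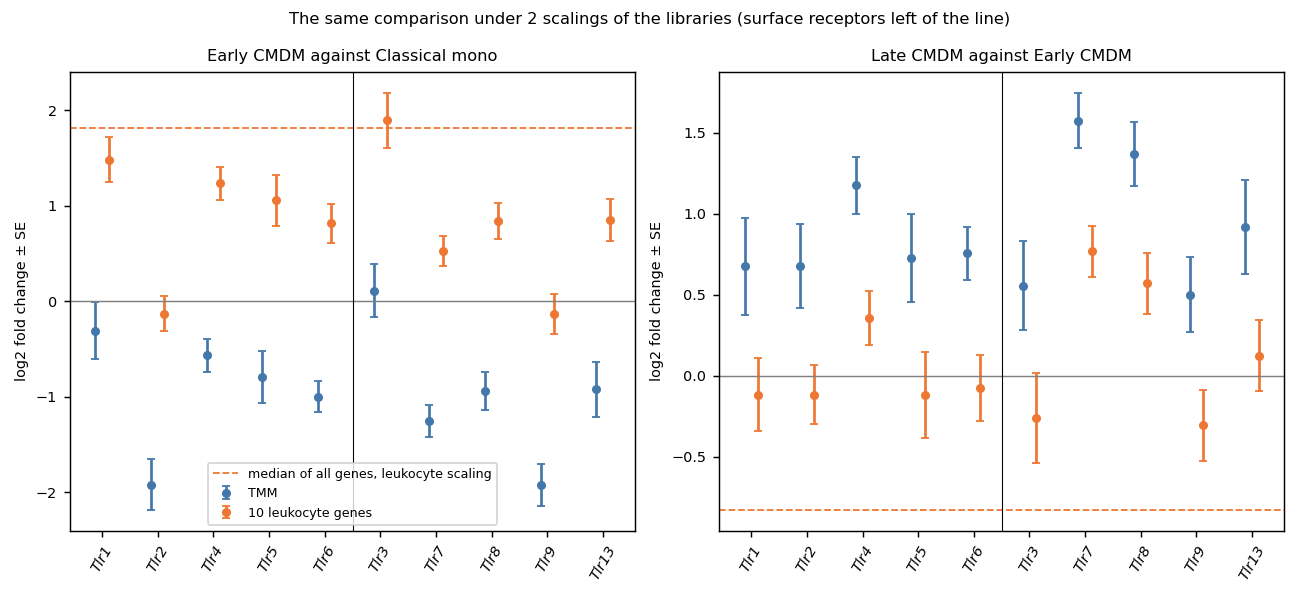
log2 fold change with its SE (y axes) of each member (x axes; surface left of the line) in early CMDMs against classical monocytes and in late against early CMDMs, after TMM and after scaling to 10 leukocyte genes; the dashed line is the median of all genes in the latter. In the left panel Tlr4 moves from -0.56 to 1.24 and Tlr7 from -1.25 to 0.53 with the scaling, which shifts all members by nearly the same amount.

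The other 2 mouse TLRs were low. Tlr11 reached 3.46 to 3.53 CPM in resident-like macrophages and 0.81 to 1.40 in late CMDMs (resident-like against late 1.64, SE 0.33, adjusted p = 0.00127), and is also a marker of type 1 conventional dendritic cells. The 6 markers of these cells, Tlr11 among them, summed to 75.04 to 100.8 CPM in resident-like macrophages and 34.1 to 41.02 in late CMDMs. In classical monocytes they summed to 74.1 to 100.4 CPM, where Tlr11 was 0.90 CPM on average. Between resident-like macrophages and late CMDMs, Cadm1 (45.8 and 15.03 CPM) and Batf3 (31.03 and 13.9) differed most in CPM. Xcr1 (4.23 and 3.68) and Clec9a (0.44 and 0.30) differed little, and Snx22 (1.95 and 2.93) was lower in resident-like macrophages. The part of these cells was not tested. Tlr12 reached 0.66 to 1.97 CPM in classical monocytes and at most 0.31 elsewhere, near the limit that a count of 0 allows.

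Genes that serve the receptors were read from 8 lists with 65 genes, of which 63 were tested. In early CMDMs against classical monocytes 4 of the 63 were higher and 39 lower after TMM, beside 24.2% and 20.6% of all genes, with a median log2 fold change of -0.64 against -0.01 for all genes. Scaled to leukocyte genes, 52 were higher and 4 lower, beside 92.1% and 1.96% of all genes, with medians of 1.18 and 1.82. In late against early CMDMs 28 were higher and 2 lower, beside 14.4% and 17.5% of all genes (medians 0.30 and 0.02), and with leukocyte gene scaling 7 were higher and 40 lower, beside 1.07% and 67.1% (medians -0.53 and -0.83). In resident-like macrophages against late CMDMs 25 were higher and 7 lower, beside 12.7% and 15.4% of all genes (medians 0.29 and 0.0028), and with that scaling 7 were higher and 36 lower, beside 2.45% and 64.4% (medians -0.46 and -0.75). The counts of single lists below stand against these shares, and directions of single genes are given with both scalings.

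Among 6 co-receptors and ligand transfer genes, 3 were lower in early CMDMs than in classical monocytes, where 20.6% of all genes were, with a median log2 fold change of -0.67 (with leukocyte gene scaling 5 were higher, beside 92.1% of all genes, and 1 lower, median 1.14). Cd14, which hands lipopolysaccharide to the Tlr4 complex, was 1648 ± 384 CPM in classical monocytes, 370 ± 98.4 in early CMDMs, 554 ± 66.4 in late CMDMs and 1237 ± 68.2 in the resident-like macrophages (SD, n = 3), and was lower in early CMDMs than in classical monocytes under both scalings (-2.16 and -0.35, adjusted p = 2.21e-07 and 0.0352). Its order of fractions was that of Tlr2 and Tlr9 and not that of Tlr4. Ly96, which encodes MD-2, the lipopolysaccharide-binding partner of Tlr4, was highest where Tlr4 was, at 53.1 ± 7.44 CPM in late CMDMs against 25.3 ± 2.82, 27.1 ± 3.27 and 33.6 ± 5.39 in classical monocytes, early CMDMs and resident-like macrophages. The rest of the order differed, as Ly96 came next in resident-like macrophages, where Tlr4 had its lowest mean (21.7 CPM). Ly96 was named after its values were seen. Ly96 was higher in late than in early CMDMs (0.97, SE 0.14, adjusted p = 5.74e-05; 0.13 and adjusted p = 0.517 with leukocyte gene scaling) and lower in resident-like macrophages than in late CMDMs (-0.66 and, so scaled, -1.40).

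Lbp, which delivers lipopolysaccharide to Cd14, was lower in resident-like macrophages than in late CMDMs under both scalings (-1.44 and -2.19). Cd180 and its partner Ly86, relatives of Tlr4 and Ly96, were lower in early CMDMs than in classical monocytes (-1.35 and -1.21), and reversed with leukocyte gene scaling (0.42 and 0.58).

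Of 9 genes of endosomal TLR trafficking and processing, 7 were higher in late than in early CMDMs, where 14.4% of all genes were, with a median log2 fold change of 0.93. After leukocyte gene scaling 3 were higher and 3 lower, beside 1.07% and 67.1% of all genes, with a median of 0.12. Ctsl, a cathepsin among the proteases that cut endosomal TLRs, was 1101 ± 280 CPM in classical monocytes, 1626 ± 432 in early CMDMs, 4235 ± 698 in late CMDMs and 1032 ± 144 in the resident-like macrophages. It was higher in late than in early CMDMs under both scalings (1.38 and 0.57, adjusted p = 0.000117 and 0.00623) and lower in resident-like macrophages than in late CMDMs (-2.04 and -2.79). Ctsb, another cathepsin, was also higher in late than in early CMDMs under both (1.19 and 0.38), as was the protease gene Lgmn after TMM alone (1.13; 0.33 and adjusted p = 0.141 so scaled). Unc93b1, the chaperone that carries TLRs to the endosome, followed Tlr7 and Tlr8 in being lowest in early CMDMs (118 ± 31.5 CPM) and highest in late CMDMs (225 ± 25.1), with a difference of 0.93 (SE 0.18, adjusted p = 0.000818) after TMM and 0.12 (adjusted p = 0.489) with leukocyte gene scaling. It was named after its values were seen. Slc15a3, a lysosomal peptide transporter, was lower in early CMDMs than in classical monocytes (-1.67), but 0.14 with that scaling.

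Of the 5 adaptors with a TIR domain, 4 were tested and Sarm1 was not. Myd88, the adaptor shared by most TLRs, had 100.9 ± 3.09, 102 ± 1.09, 101.3 ± 7.17 and 116 ± 12.4 CPM in the 4 fractions in turn, with adjusted p from 0.131 to 0.975 over the 6 comparisons after TMM. Between early CMDMs and classical monocytes it differed by 0.015 after TMM and by 1.86 (adjusted p = 2.52e-10) with leukocyte gene scaling, close to the median gene under both, so that its like level in the fractions depends on the scaling. Ticam1 (TRIF), which serves Tlr3 and Tlr4, and Ticam2 (TRAM), which serves Tlr4, were lower in early CMDMs than in classical monocytes (-0.94 and -1.20). Both reversed with leukocyte gene scaling (0.89 and 0.59).

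Among 14 kinases and ubiquitin ligases, 1 was higher and 8 lower in early CMDMs than in classical monocytes, beside 24.2% and 20.6% of all genes (median -0.40). Leukocyte gene scaling gave 13 higher and 1 lower, beside 92.1% and 1.96% (median 1.44). Irak2, a kinase downstream of MyD88, was 238 ± 32.3 CPM in classical monocytes, 51.6 ± 8.36 in early CMDMs, 50.04 ± 1.37 in late CMDMs and 137 ± 7.30 in the resident-like macrophages. It was lower in early CMDMs than in classical monocytes (-2.20 after TMM and -0.38 with leukocyte gene scaling, adjusted p = 2.08e-09 and 0.0151) and higher in resident-like macrophages than in late CMDMs (1.45 and 0.70). Ikbke, a kinase of the interferon arm, was lower in resident-like macrophages than in classical monocytes (-1.71 and -1.48). Of 7 transcription factors 5 were lower in early CMDMs than in classical monocytes (median -0.85, and 20.6% of all genes were lower), and 6 were higher with leukocyte gene scaling (median 0.98, and 92.1% of all genes were higher). Irf5 fell by 1.38 on the log2 scale after TMM but reversed to 0.42 so scaled, and Rel, an NF-κB subunit, was higher in resident-like macrophages than in late CMDMs under both (1.15 and 0.39). Irf7, a regulator of type I interferon known to be abundant in plasmacytoid dendritic cells, was 178 ± 57.1 CPM in classical monocytes, the fraction with the highest level of the markers of those cells, and 39.1 to 45.8 on average in the other fractions. Between early CMDMs and classical monocytes it differed by -1.96 after TMM and by -0.17 (adjusted p = 0.546) with leukocyte gene scaling. The part of plasmacytoid dendritic cells in the Irf7 level was not tested.

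Of 9 negative regulators, 5 were higher and 1 lower in resident-like macrophages than in late CMDMs (median 0.45), beside 12.7% and 15.4% of all genes. With leukocyte gene scaling 1 was higher and 4 lower (median -0.29), beside 2.45% and 64.4%. Il1rl1, which encodes the IL-33 receptor ST2, was 41.5 ± 6.57 CPM in resident-like macrophages and 11.3 ± 1.43 in late CMDMs (1.87 and, so scaled, 1.12). It is also known from mast cells, and the summed level of 6 basophil and mast cell markers was 34.2 to 61.7 CPM in resident-like macrophages and 9.24 to 18.6 in late CMDMs (Cpa3, a mast cell protease, 19.2 and 4.95 CPM on average). The part of these cells was not tested. Irak3, an inhibitory relative of Irak2, was lower in late CMDMs than in classical monocytes (-1.22, and -0.24 with adjusted p = 0.245 so scaled). Of 12 tested cytokine and chemokine genes that TLRs are known to induce, 10 were lower and 1 higher in early CMDMs than in classical monocytes (median -0.93), beside 20.6% and 24.2% of all genes. With leukocyte gene scaling 2 were lower and 7 higher (median 0.89), beside 1.96% and 92.1%. Il1b was 1153 ± 124, 191 ± 42.3, 247 ± 26.8 and 1049.6 ± 80.1 CPM in the 4 fractions in turn, lower in early CMDMs than in classical monocytes (-2.60 and -0.79) and higher in resident-like macrophages than in late CMDMs (2.09 and 1.34) under both scalings. Tnf was 40.9 ± 6.31 CPM in early and 104 ± 9.30 in late CMDMs (1.35 and 0.51), and Ccl5 was 235 ± 63.7 CPM in classical monocytes and 21.5 ± 6.86 in early CMDMs (-3.45 and -1.64). Ccl5 is also made by T and NK cells, whose 6 markers summed to 153 to 207 CPM in classical monocytes and 10.2 to 11.7 in early CMDMs, with none at 0 (Nkg7 83.7 and 2.84 CPM on average), and their part was not tested.

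For each member the genes closest to it were sought by the Pearson correlation of log2 CPM over the 12 libraries, among 12757 genes with a mean of at least 5 CPM. The closest to Tlr2 were Csf2rb2 (0.99), Cd300c2 (0.99) and Lfng (0.99), and to Tlr9 Plekhg2 (0.98), Crlf3 (0.98) and Sms (0.98). Npc2, which binds cholesterol in lysosomes, was closest to Tlr7 (0.98) and the third closest to Tlr8 (0.94, after Gm21188 and Aldh3b1). The closest to Tlr4 was Zfp106 (0.99), then S1pr1 (0.95), and to Tlr6 Pxk (0.97). Those of Tlr1 (Eno2, 0.93), Tlr5 (Fadd, 0.92), Tlr13 (Sestd1, 0.92) and Tlr3 (Gm49359, 0.87) were less close. With so many genes and 4 fractions these values describe likeness only. They too are of TMM values and were not computed with leukocyte gene scaling.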

How the data were processed

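Bulk RNA-seq of 4 Mo-Mac fractions sorted from IgE-CAI lesions, with 3 libraries each, was analysed at the 10 TLR genes. The members, the gene lists and the alternatives were chosen with earlier results of these data known. The deposited values are raw read counts per gene symbol, which the authors made by trimming with cutadapt 4.1, mapping to GRCm38 transcripts with Bowtie2 2.4.5 on one strand and summing transcripts by symbol. A strand filter and sums over transcripts leave reads common to paralogs uncertain. All columns of the table were used.

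Counts of all 12 libraries were filtered by fraction (filterByExpr), normalized by TMM and tested with the robust quasi-likelihood method of edgeR 4.0.16 (R 4.3.3), with 1 coefficient per fraction. The 22118 genes tested were adjusted by Benjamini-Hochberg in each of 6 comparisons, with a threshold of 0.05. The biological coefficient of variation was 13.2%. SEs were obtained from the fold change and the F statistic. CPM are TMM-normalized, and log2 CPM used a prior count of 2. Total counts of 12537178 to 19844113 per library put 3 counts at 0.151 to 0.239 CPM. The chi-square between libraries of 1 fraction, per degree of freedom, lay between 3.39 and 16.1, and all libraries were counted as separate. The test recovered known changes in simulated counts, where a small share of well-counted genes was raised in early CMDMs only. All other genes were alike in the simulated fractions, so this check cannot decide between the scalings.

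Alternatives were RLE factors, library size only, TMM without called genes (DEGES, 3 rounds, the strategy of TCC, which the study's methods name), scaling to 10 leukocyte genes, DESeq2 1.42.0, no filter, at least 10 counts in every library, leaving out genes over 1% of counts, a fit of only the 6 libraries compared, a block for the replicate number, other thresholds and leaving out each library. The alternatives for single pathway genes and lists were added after seeing the data. All members are named; of each pathway list up to 4 tested genes with the widest range of fraction means are named, and Ly96 and Unc93b1 were added after their values were seen. For each member the 3 genes closest by correlation are named, or fewer.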

Additional observations from a re-analysis of the deposited data

How the results depend on the processing

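Scaling to the leukocyte genes changed the results most. It moved the median log2 fold change of all genes from near 0 to 1.82 in early CMDMs against classical monocytes, 0.97 in late CMDMs against classical monocytes, -0.83 in late against early CMDMs, 0.23 in resident-like macrophages against classical monocytes, -1.58 in resident-like against early and -0.75 in resident-like against late. Of all genes called, 97.9% were then higher in early CMDMs against classical monocytes, 94.5% in late CMDMs against classical monocytes, 1.56% in late against early, 68.1% in resident-like against classical, 1.56% in resident-like against early and 3.66% in resident-like against late, where TMM gave 54.0%, 50.8%, 45.1%, 45.7%, 46.0% and 45.1%. Members whose sign reversed are given with the leukocyte-scaled log2 fold change. In early CMDMs against classical monocytes these were Tlr1 (1.49), Tlr4 (1.24), Tlr5 (1.06), Tlr6 (0.82), Tlr7 (0.53), Tlr8 (0.84) and Tlr13 (0.86), and in late CMDMs against classical monocytes Tlr5 (0.94), Tlr6 (0.74) and Tlr13 (0.98). In late against early CMDMs they were Tlr1 (-0.11), Tlr2 (-0.12), Tlr3 (-0.26), Tlr5 (-0.12), Tlr6 (-0.074) and Tlr9 (-0.31). In resident-like macrophages against classical monocytes they were Tlr1 (0.081), Tlr2 (0.036), Tlr7 (0.20) and Tlr8 (0.0699), and against early CMDMs Tlr1 (-1.41), Tlr5 (-1.23), Tlr6 (-1.39), Tlr7 (-0.33), Tlr8 (-0.77), Tlr9 (-0.19) and Tlr13 (-1.06). Among the pathway genes named in early CMDMs against classical monocytes, Cd180 (0.42), Ly86 (0.58), Slc15a3 (0.14), Ticam1 (0.89), Ticam2 (0.59) and Irf5 (0.42) reversed. The number of members called became 8 in late CMDMs against classical monocytes, all higher, where 16484 of the 22118 genes tested were higher and 968 lower. It became 1 in resident-like macrophages against classical monocytes, a lower member, where 3288 of all genes were higher and 1541 lower. In late against early CMDMs it became 2 and in resident-like macrophages against early CMDMs 7, beside the shares of all genes given above. The number of pathway genes called in late against early CMDMs became 47 in place of 30. The cause was not tested.

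Other alternatives moved less. With library size only, the median of all genes shifted to -0.17, -0.14 and -0.13 in resident-like macrophages against classical monocytes, early CMDMs and late CMDMs, the share of higher calls to 24.1%, 31.5% and 28.0%, and Tlr1 in resident-like against early CMDMs turned to -0.025. Tlr13 in late CMDMs against classical monocytes, near 0 after TMM, was 0.0021 with RLE factors, 0.042 with DEGES, 0.0039 with DESeq2, 0.0069 without the filter, 0.0015 without genes over 1% of counts and 0.012 with only the 6 libraries. In late CMDMs against classical monocytes 5 members were called, in place of 3, without the filter, with only the 6 libraries, with the replicate block and at an adjusted p under 0.1. In late against early CMDMs 8 were called, in place of 5, with only the 6 libraries and with the block. At an adjusted p under 0.01 the members called were 5 in early CMDMs against classical monocytes and 3 in resident-like against late.

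Leaving out single libraries gave 5 to 8 members called in early CMDMs against classical monocytes, 2 to 5 in late CMDMs against classical monocytes, 4 to 8 in late against early CMDMs and 1 to 3 in resident-like macrophages against classical monocytes. In resident-like macrophages against late CMDMs, single libraries ended the calls of Tlr3, Tlr6 and Tlr8 and gave a call of Tlr7. Against early CMDMs they gave a call of Tlr13. Signs that changed belonged to differences without a call. In early CMDMs against classical monocytes Tlr1 ranged from -0.66 to 0.13, Tlr3 from -0.13 to 0.55 and the adaptor gene Myd88 from -0.0095 to 0.042, and in late CMDMs against classical monocytes Tlr5 from -0.32 to 0.34 and Tlr13 from -0.22 to 0.16. In resident-like macrophages against classical monocytes Tlr1 ranged from -0.41 to 0.26, Tlr2 from -0.40 to 0.14, Tlr3 from -0.52 to 0.17 and Tlr7 from -0.10 to 0.044, and against early CMDMs Tlr1 from -0.059 to 0.50 and Tlr4 from -0.27 to 0.078.

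The replicate numbers were not treated as pairing the libraries. The deviations of same-numbered libraries from their fraction means correlated by -0.099 to 0.248 in 18 pairs, over 0.1 in 4 of them, and 9 of 12 libraries correlated best with one of their own number, which is a hint from the data only. With the replicate block the members called were 8, 5, 8, 3, 4 and 8 in the 6 comparisons, in the order in which the medians above are given. This block turned 8 results of members without a call into calls and ended 0 calls. The settings listed for single members above leave it out.

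Depth set no limit for the members, whose levels were well above 3 counts in a library, but it left Tlr3, with 44 to 94 counts, less precise than the others. Tlr12, which is not a member, was at or near that limit outside classical monocytes. With 3 libraries a fraction and calls near the threshold, the counts of members called moved with single libraries as given above.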
